A study of Mus musculus with 4 samples.

Results

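The BCL2 family decides whether a cell keeps its mitochondrial outer membrane intact or opens it and dies by apoptosis. The genes described are Mcl1, Bcl2l1, Bcl2, Bax, Bak1, Bad, Bbc3, Bcl2l11, Bmf and Hrk, found by gene name. All 10 were present among the 54532 genes of the table, each in 1 row.

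Transcripts were sequenced from pancreatic islets; the mice were C57BL/6 males, 10 to 12 weeks old. The transgenic islets (2 libraries, transgenic 1 and 2) came from mice that overexpress miR-29a and miR-29b-1 from a transgene specific to pancreatic beta cells, and the wild-type islets (2 libraries, wild type 1 and 2) came from mice of the same strain, sex and age without it. The labels name neither the promoter of the transgene nor the number of mice behind a library, so a p-value here reflects library to library spread that may be technical. Because whole islets were sequenced, transcripts of cells without the transgene are counted too, and fewer cells of a type and less RNA per cell cannot be told apart.

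Proteins of the family meet at the mitochondrial surface. Survival members (MCL1, BCL-XL from Bcl2l1, and BCL2) hold the pore-forming effectors BAX and BAK in check. BH3-only members (here BAD, PUMA from Bbc3, BIM from Bcl2l11, BMF and HRK) report stress by occupying the survival proteins, and some of them also activate the effectors directly. MicroRNAs of the miR-29 family find their target transcripts by pairing of the seed and reduce their level or translation. In mouse neurons miR-29b is known to restrain several BH3-only transcripts, and in beta cells Mcl1 is a known target of miR-29, so the same microRNA bears on both arms of the family.

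The overexpressed microRNAs are shown first, because their seed is the part read against the family's transcripts. The sequences are from RefSeq (GRCm38.p6), and the capitals mark the seed, bases 2 to 8, which miR-29a-3p and miR-29b-3p share.
miR-29a-3p: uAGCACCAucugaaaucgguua
miR-29b-3p: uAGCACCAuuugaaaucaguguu
The 7 bases that pair with this seed, TGGTGCT, were looked for on the transcript strand of the longest annotated 3' UTR of each member (GENCODE M21, GRCm38). They occurred in 6 of the 10 members, while 15.6% of the 10704 tested genes with an annotated 3' UTR held them. The share among the members is no result, since Mcl1, Bbc3, Bmf and Hrk were included as miR-29 targets and all 4 hold a match. Of the other 6 members 2 do, Bak1 and Bcl2l11. Bcl2 and Hrk are not among the tested genes. Bbc3 held 2 matches, Hrk 3, and Mcl1, Bak1, Bcl2l11 and Bmf 1 each. Bcl2l1, Bcl2, Bax and Bad held none. The sites are given 5' to 3' with the match in capitals, to show how far each resembles the others outside the seed. Of the Hrk sites only site 2 is printed.
Mcl1: gctagagtcttaaccaTGGTGCTa
Bak1: ataccccaacattgcaTGGTGCTa
Bmf: atgtaaggaaagacatTGGTGCTa
Hrk site 2: tcacttcacagtttctTGGTGCTa
Bbc3 site 1: tctcaggaaaggctgcTGGTGCTg
Bbc3 site 2: cctggcctcaggccccTGGTGCTt
Bcl2l11: cgtcatgtccctctctTGGTGCTg
In Mcl1, Bak1, Bmf and site 2 of Hrk the match is followed by an A, the context in which such sites are usually strongest. In Bbc3, Bcl2l11 and sites 1 and 3 of Hrk it is not. These stretches lie at chr3:95661843-95661866 on the plus strand for Mcl1, chr17:27020736-27020759 on the minus strand for Bak1, chr2:118531356-118531379 on the minus strand for Bmf and chr5:118185086-118185109 on the plus strand for Hrk. Those of Bbc3 lie at chr7:16317534-16317557 and chr7:16317619-16317642 on the plus strand, and that of Bcl2l11 at chr2:128158397-128158420 on the plus strand. The matches of Bbc3 begin at bases 316 and 401 of a UTR of 971 bases, and that of Mcl1 at base 1036 of 2353. A match is a description of the letters and does not show that the site is used. The tested genes with a match had a median log2 fold change of 0.01 (1665 genes) and those without 0.02 (9039 genes).

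**Figure D1:**
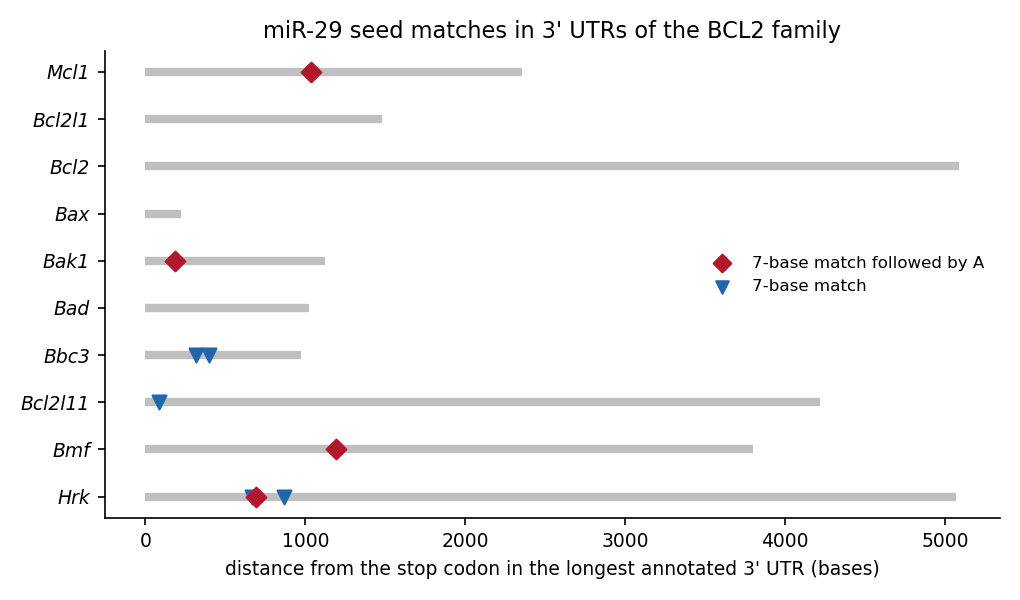
Position of each 7-base match to the miR-29 seed along the longest annotated 3' UTR of the 10 members, in bases from the stop codon; bars give UTR length, diamonds are matches followed by an A and triangles the other matches. Hrk carries 3 matches, Bbc3 has 2 and 4 members have 1, while Bcl2l1, Bcl2, Bax and Bad have none.

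Reads in genes ranged from 21670854 to 27080907 per library, and values are FPKM, reads adjusted for gene length and for library size. All 12 beta cell markers reached 1 FPKM in at least 2 libraries. Their summed FPKM was 0.677 times that of wild type in transgenic islets of number 1 and 0.946 times in number 2. That sum is mostly Ins2, Ins1 and Iapp, with means of 163430, 41771 and 24805 FPKM. The median log2 fold change of the 12 markers was -0.05. Ins2 took 12.8% of the reads in transgenic 1 and 25.5% in transgenic 2, against 20.1% in wild type 1 and 26.6% in wild type 2. The 8 endothelial markers summed to 1.25 and 1.20 times wild type. The part of these shifts in the results below was not tested. Libraries of the same number lay closer together than libraries of the same genotype: over the 12716 genes with at least 1 FPKM in 2 libraries, Pearson's r was 0.985 for the pair numbered 1 and 0.989 for the pair numbered 2 on the log2(FPKM + 1) scale, against 0.950 within either genotype. These r values are across genes, which are not independent replicates. Exocrine genes and immediate early genes marked that split: the summed FPKM of 17 acinar markers was 7340 in transgenic 1 and 1985 in transgenic 2, against 5429 in wild type 1 and 1153 in wild type 2. None of the 17 was at 0 in every library. Ratios of transgenic to wild-type libraries are therefore also given within each number. What the number stands for is not given in the labels.

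The family was ordered by level in nearly the same way in every library. Mcl1 was the most abundant member, between 30.3 and 42.0 FPKM, followed by Bax (19.9 to 27.6) and Bcl2l1 (11.4 to 13.3). Bbc3 (6.81 to 13.5) and Bad (8.14 to 12.4) came next, with ranges that overlapped each other and that of Bcl2l1. Bak1 (2.72 to 3.95) lay below them without overlap. Bcl2l11 (1.31 to 1.64) was above Bmf (0.753 to 1.54) in all 4 libraries although their ranges overlapped. Bcl2, the founding member of the family, reached only 0.329 to 0.466 FPKM, and Hrk was close to absent. Of the FPKM summed over Mcl1, Bcl2l1 and Bcl2, Mcl1 made up 77.9% and 70.8% in transgenic 1 and 2 and 76.9% and 69.9% in wild type 1 and 2. With the survival relative Bcl2l2, which is not among the 10, added to the sum, its share was 60.7% and 49.0% in transgenic 1 and 2 and 61.0% and 47.2% in wild type 1 and 2.

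**Figure D2:**
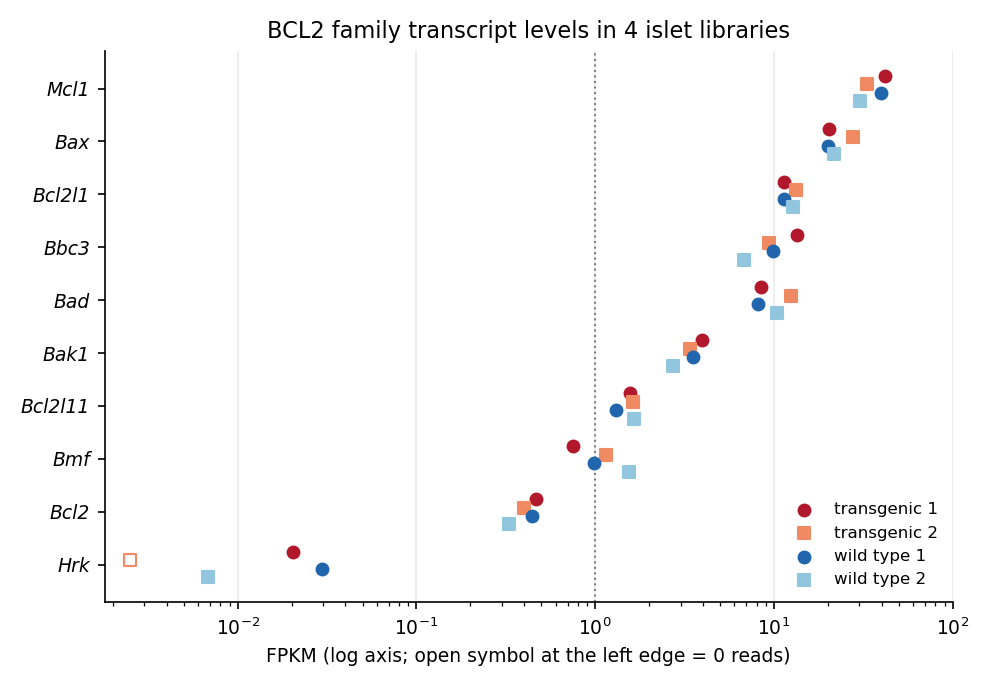
FPKM (log axis) of the 10 members in each of the 4 islet libraries, ordered by mean level; red and orange are transgenic, blue shades are wild type, circles number 1 and squares number 2, the dotted line is at 1 FPKM and the open symbol at the left edge stands for 0 reads. Mcl1 leads in every library, and Hrk, at 0 to 4 reads, lies far below the other members.

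The genotypes were compared to see whether family transcripts differ in islets whose beta cells overexpress these microRNAs. The 8 members above the level tested were compared within a fit over all 12716 genes with limma on log2(FPKM + 1), and Bcl2 and Hrk lay below it. None of the 8 was called at an adjusted p under 0.05, where the fit called 0 genes (0%) in all. At an unadjusted p under 0.05 lay 83 genes (0.653%) and 0 members. The genotypes overlapped in each of the 8, whereas they did not in 21.3% of the genes tested, 12.2% with transgenic higher and 9.03% with transgenic lower. Within the numbers, 6 of the 8 were higher in transgenic islets in both, against 33.5% of the genes tested. Bmf alone was lower in both, against 27.4%. With the GC trend of each library subtracted, a setting chosen after seeing the data for this count, 3 of the 8 (Mcl1, Bbc3 and Bcl2l11) were higher in both, against 27.4% of the genes tested, and 2 (Bmf and Bcl2l1) were lower in both, against 25.3%. The median log2 fold change of the 8 was 0.12, beside 0.01 over all genes tested, and 0.03 with the GC trend subtracted. The difference between library numbers counts as spread within genotypes in the limma fit, so an adjusted p of 1.00 there does not show that a gene did not differ. A voom fit on the recovered reads with library number as a term, an alternative with 1 residual degree of freedom, called 1 of the 8, Bbc3, as higher, against 1.87% of the genes tested called in either direction and 1.6% called higher. Once the trend of each library with GC content was taken out it called 0 of the 8, against 0.873% in either direction and 0.637% higher.

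Among the survival members, Mcl1 (chromosome 3, 95658788 to 95663176) had 42.0 and 33.3 FPKM in transgenic 1 and 2, against 39.6 and 30.3 in wild type 1 and 2. Each transgenic library was slightly above the wild-type library of its number, while the genotypes overlapped. The transgenic to wild-type ratio was 1.06 in number 1 (95% exact counting interval 1.01 to 1.11) and 1.10 in number 2 (1.04 to 1.16). At the deposited scaling both intervals lie above equality, though by little. Intervals come from the reads of the gene in 2 libraries and cover counting error only, not the choice of scaling. Over all libraries the log2 fold change was 0.11 ± 0.22 (standard error, n = 2 per group; limma adjusted p = 1.00), and it was -0.05 without transgenic 1 and -0.08 without wild type 2. Here and below, leaving out a library represents the numbers unequally, so such a value also holds the difference between numbers.

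Bcl2l1 (chromosome 2, 152780668 to 152831728), whose main product BCL-XL protects beta cells from death, had 11.4 and 13.3 FPKM in transgenic islets and 11.4 and 12.7 in wild-type islets. It was the steadiest member, with ratios of 1.00 in number 1 (0.928 to 1.08) and 1.05 in number 2 (0.971 to 1.13) and a log2 fold change of 0.03 ± 0.15 (limma adjusted p = 1.00). Bcl2 (chromosome 1, 106538178 to 106714274) had 0.466 and 0.400 FPKM in transgenic islets, from 110 and 77 reads, and 0.444 and 0.329 in wild-type islets, from 97 and 78 reads. The counting intervals of its ratio, 0.792 to 1.39 in number 1 and 0.877 to 1.69 in number 2, include equality, so that no difference was detectable at this depth.

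Of the effectors, Bax (chromosome 7, 45461697 to 45466898), which moves from the cytosol to mitochondria when activated, had 20.4 and 27.6 FPKM in transgenic islets and 19.9 and 21.7 in wild-type islets. The libraries numbered 1 were nearly equal, and transgenic 2 stood above the other 3. The ratio was 1.02 in number 1 (0.924 to 1.13) and 1.27 in number 2 (1.16 to 1.40), and the log2 fold change was 0.18 ± 0.20 (limma adjusted p = 1.00). Without transgenic 2 it was -0.03. On its own strand 12.2% of the annotated exon bases of Bax overlap Gm45808, a gene at 0 FPKM. Bak1 (chromosome 17, 27019810 to 27029009), whose protein sits in the mitochondrial membrane already, had 3.95 and 3.38 FPKM in transgenic islets and 3.52 and 2.72 in wild-type islets. Its ratio was 1.12 in number 1 (0.928 to 1.36) and 1.24 in number 2 (0.998 to 1.54), so both intervals include equality, and its log2 fold change was 0.18 ± 0.16 (limma adjusted p = 1.00). The sources do not say whether strand was used in counting. On the other strand 18.2% of the annotated exon bases of Bak1 overlap Ggnbp1, a gene at 1.67 to 2.02 FPKM. There 7.35% overlap a gene without a value here.

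Among the BH3-only members, Bbc3 (chromosome 7, 16308393 to 16318205), which encodes PUMA, a potent killer induced by p53 and by endoplasmic reticulum stress, had the highest fold change of the 8 tested members. It had 13.5 and 9.34 FPKM in transgenic islets, from 740 and 417 reads, against 9.86 and 6.81 FPKM in wild-type islets, from 500 and 375 reads. Transgenic 1 was the highest library and wild type 2 the lowest, and the genotypes overlapped because wild type 1 was above transgenic 2. Within numbers the ratios were alike, 1.37 in number 1 (1.22 to 1.54) and 1.37 in number 2 (1.19 to 1.58). Both intervals lie above equality, so counting error does not cover the difference between those libraries. The log2 fold change over all libraries was 0.41 ± 0.26 (limma adjusted p = 1.00), and 198 of the 12716 genes had a fold change at least as high. Bbc3, with its 2 seed matches, was thus not lower in the transgenic library of either number.

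Bbc3 was higher in the libraries of number 1, as were the immediate early genes, the first to be transcribed when tissue is stimulated or dissociated. The 10 listed immediate early genes, none at 0 in every library, summed to 3662 and 771 FPKM in transgenic 1 and 2, against 2616 and 536 in wild type 1 and 2, which is 1.40 and 1.44 times higher in transgenic islets of number 1 and number 2. The acinar markers were 1.35 and 1.72 times higher. The part of these genes, or of the cells that express them, in the difference of Bbc3 was not tested.

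Bad (chromosome 19, 6941861 to 6951898), which is kept inactive by survival kinases and is known from mice to take part in glucose sensing by the beta cell, had 8.43 and 12.4 FPKM in transgenic islets and 8.14 and 10.4 in wild-type islets. The ratio was 1.04 in number 1 (0.901 to 1.19) and 1.20 in number 2 (1.06 to 1.35), with a log2 fold change of 0.14 ± 0.24 (limma adjusted p = 1.00). It was -0.11 without transgenic 2 and -0.02 without wild type 1. Of its annotated exon bases 20.5% overlap Gpr137 on the other strand, a gene at 10.6 to 13.4 FPKM.

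Bcl2l11 (chromosome 2, 128126038 to 128162547), which encodes BIM, a strong activator of the effectors, had 1.57 and 1.64 FPKM in transgenic islets and 1.31 and 1.64 in wild-type islets. Wild type 1 was below the other 3 libraries, which were almost equal. Its ratio was 1.19 in number 1 (1.01 to 1.41) and 0.999 in number 2 (0.849 to 1.17), and its log2 fold change, 0.07 ± 0.16 (limma adjusted p = 1.00), was -0.02 without wild type 1.

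Bmf (chromosome 2, 118528757 to 118549687), whose protein is held at the cytoskeleton until cells detach or are stressed, was the member with lower values in transgenic islets. It had 0.753 and 1.15 FPKM in transgenic islets, from 102 and 127 reads, against 0.989 and 1.54 in wild-type islets, from 124 and 210 reads. The ratio was 0.762 in number 1 (0.580 to 0.998) and 0.746 in number 2 (0.594 to 0.935), so that both intervals lie below equality, the first by little. The genotypes overlapped, since transgenic 2 was above wild type 1. The log2 fold change was -0.21 ± 0.23 (limma adjusted p = 1.00), and 724 of the genes tested had one at least as low. That scale understates the difference of so low a gene: with a pseudocount of 0.1 in place of 1 it was -0.37. Bmf passed the level tested only through its libraries of number 2. Within each library Bmf stood at 0.481 and 0.703 times Bcl2l11 in transgenic 1 and 2, against 0.752 and 0.941 times in wild type 1 and 2.

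Hrk (chromosome 5, 118164648 to 118189478), a BH3-only member known from neurons, had 3 and 0 reads in transgenic 1 and 2, against 4 and 1 in wild type 1 and 2. A count of 0 in transgenic 2 allows up to 3 reads, or 0.0251 FPKM. With 3 seed matches it has the most of the family, but at these counts no difference could be detected in either direction.

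**Figure D3:**
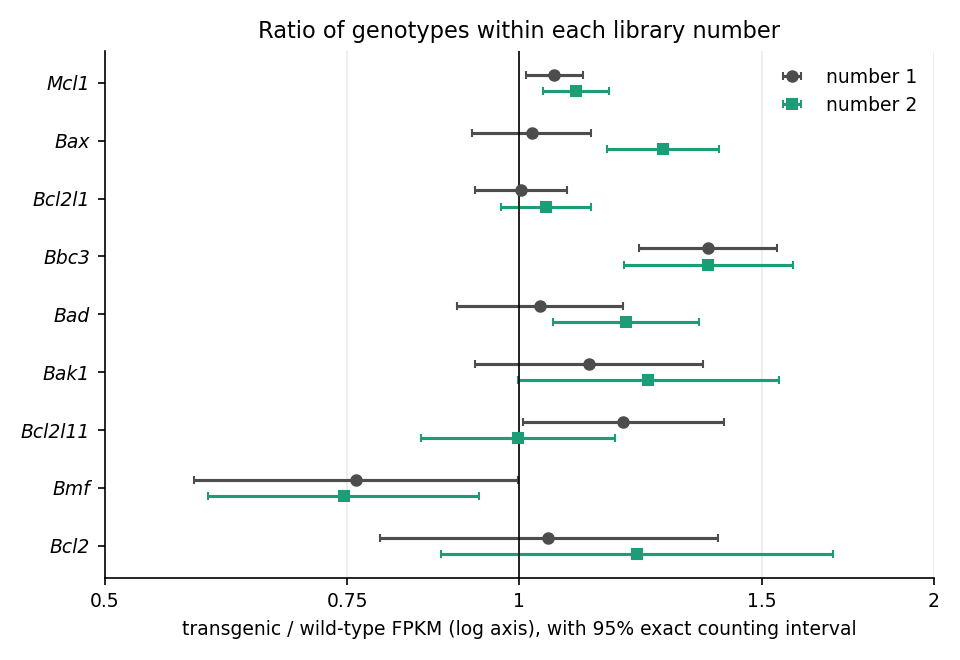
Transgenic over wild-type FPKM (log axis) of 9 members within library number 1 (grey circles) and number 2 (green squares). Bars are 95% exact intervals for counting error at the deposited scaling, and the line marks equality. The intervals of Bbc3 and, narrowly, of Mcl1 lie above equality and those of Bmf below it in both numbers, while those of Bcl2l1, Bak1 and Bcl2 include it in both.

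Summed by role, the BH3-only members came to 24.3 and 24.5 FPKM in transgenic 1 and 2, against 20.3 and 20.4 in wild type 1 and 2. The sums of each genotype were close although their make-up was not. Bbc3 made up 55.7% of the sum in transgenic 1 and 38.1% in transgenic 2, against 48.5% in wild type 1 and 33.4% in wild type 2, with Bad taking most of the rest. The survival members summed to 53.9 and 47.0 FPKM in transgenic islets and 51.4 and 43.3 in wild-type islets, and the effectors to 24.3 and 31.0 in transgenic islets and 23.5 and 24.4 in wild-type islets. The ratio of survival to BH3-only FPKM was 2.22 and 1.92 in transgenic 1 and 2, against 2.53 and 2.13 in wild type 1 and 2. It was lower in the transgenic library of each number, while transgenic 1 was above wild type 2. With a curve on GC content subtracted from each library the ratio was 2.43 and 1.94 in transgenic 1 and 2, against 2.36 and 2.02 in wild type 1 and 2, so that its direction turned in number 1. These sums carry no test, because 2 libraries against 2 cannot go below an exact permutation p of 0.333 and the members were chosen with results known.

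**Figure D4:**
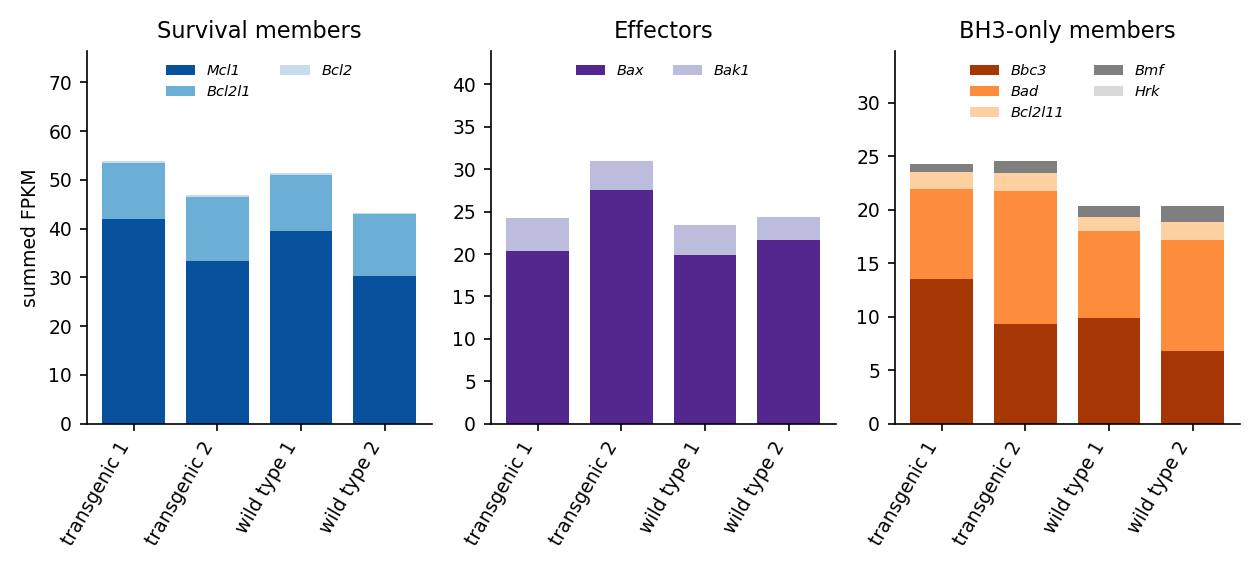
Summed FPKM of the survival members, the effectors and the BH3-only members in each library, with 1 bar for each library and 1 colour for each gene. The BH3-only bars stand at 24.3 and 24.5 FPKM in the transgenic libraries and at 20.3 and 20.4 in the wild-type libraries, with Bbc3 and Bad taking different shares in number 1 and number 2.

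Several members have GC-rich transcripts, and the fold changes of all genes followed GC content. The GC content of the longest transcript was 65.2% for Bbc3, 63.5% for Bax and 55.9% to 57.1% for Bcl2l1, Bak1 and Bad, beside a median of 49.7% over the genes tested. Over the quintile of genes richest in GC the median log2 fold change was 0.16, and over the poorest quintile it was -0.10. After a smooth curve on GC content had been subtracted from every library, the log2 fold change of Bbc3 was 0.18, of Bak1 0.05, of Bad 0.01, of Bax -0.03 and of Bcl2l1 -0.08. Those of Mcl1 (0.12), Bcl2l11 (0.09) and Bmf (-0.29), which are less GC-rich, stayed closer to those from the deposited FPKM. The BH3-only sums, computed after that step on the tested members and chosen after seeing the data, were 21.9 and 23.9 FPKM in transgenic islets against 21.8 and 21.5 in wild-type islets.

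**Figure D5:**
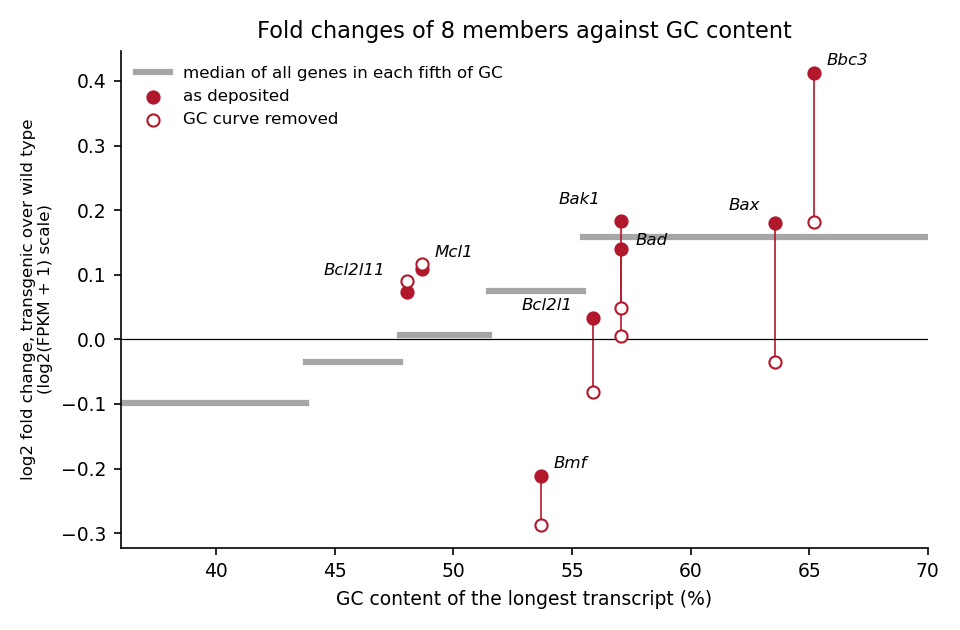
Log2 fold change of the 8 tested members, transgenic over wild type, against the GC content of their longest transcript; filled points are from the FPKM as deposited, open points after subtraction of a GC curve from every library, and grey bars are medians of all genes tested in each quintile of GC content. Bbc3 goes from 0.41 to 0.18 and Bax from 0.18 to -0.03, while Bmf is at -0.21 and -0.29.

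Library numbers separated the members: in each of the 8 tested, both libraries of 1 number were above both of the other, against 66.8% of the genes tested. The 3 members Mcl1, Bbc3 and Bak1 were higher in number 1, with means 1.28, 1.45 and 1.22 times those of number 2, against 32.4% of the genes tested in that direction. The 5 members Bax, Bcl2l1, Bad, Bcl2l11 and Bmf were lower in number 1, at 0.818, 0.878, 0.727, 0.880 and 0.647 times number 2, against 34.4%. Bmf adds nothing to these counts, since it entered the test only through its libraries of number 2, which leaves 7 members that separate the numbers. The order of Bbc3 and Bad differed between the numbers, with Bbc3 at 1.60 times Bad in transgenic 1 and 1.21 times in wild type 1, against 0.753 times in transgenic 2 and 0.656 times in wild type 2. The acinar and immediate early sums also differed between the numbers, and their part in these shifts was not tested.

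Genes whose values over the 4 libraries were most like those of Mcl1, by the Euclidean distance between log2(FPKM + 1) profiles centred on their mean, included Cgn (0.0278) and Bcl9l (0.0279). As many as 249 genes lay within 0.1 of it. Bbc3 had a rarer profile, with 7 genes within 0.1, the nearest being Lrp10 (0.0679), Pak4 (0.0751) and C2cd2l (0.0767).

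The rest of the pathway was read from 8 fixed lists in the same limma fit, in which 0 genes of each list passed in either direction. Voom with library number as a term called 4 of the list genes, all higher in transgenic islets: Jun, Atf3 and Akt1 among the regulators of BH3-only members and Bag3 among those of MCL1 turnover. With the GC trend also removed it called Jun (voom adjusted p = 0.0181) and Atf3 (2.08e-06), both of which are among the 10 immediate early genes, and not Akt1 or Bag3. Of 17 other BCL2 relatives, 9 were high enough to be tested, with a median log2 fold change of 0.02. The survival member Bcl2l2 was at 15.2 and 21.0 FPKM in transgenic islets and 13.4 and 20.8 in wild-type islets, above Bcl2l1 in each library. Bid, which links death receptors to mitochondria, was at 1.07 and 1.14 FPKM in transgenic islets and 1.18 and 1.63 in wild-type islets (log2 fold change -0.19 ± 0.19, limma adjusted p = 1.00). The mitophagy receptors Bnip3 and Bnip3l had log2 fold changes of -0.16 and -0.15. Of 19 genes of the apoptosome and caspases 17 were tested (median 0.01), led by the protease gene Htra2 (0.20 ± 0.14, limma adjusted p = 1.00), Endog (0.27) and Parp1 (0.13). The 15 mitochondrial partners had a median of -0.04, and the fission and fusion genes Mff (-0.17) and Opa1 (-0.11) and the channel gene Vdac3 (-0.15) had the smallest p among them. For the 11 tested death receptor genes of 14 the median was 0.05, with Tnfrsf1a at 0.24, Tnfrsf21 at 0.16 and Casp8 at -0.13.

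Of 17 genes of p53 and its targets, 15 were tested, with a median of 0.09, which was 0.0048 with the GC trend subtracted, -0.04 without transgenic 1 and -0.03 without wild type 2. Ccng1 was at 23.1 and 24.9 FPKM in transgenic islets and 34.2 and 25.8 in wild-type islets, and its log2 fold change was -0.30. The cell cycle inhibitor gene Cdkn1a was at 17.2 and 20.6 in transgenic islets and 15.8 and 17.8 in wild-type islets (0.16), and Trp53i11 had a fold change of 0.16. Of 20 genes whose products regulate or bind BH3-only genes or proteins, among them kinases, transcription factors, dynein light chains and a phosphatase, 19 were tested (median 0.07). Akt1, whose kinase phosphorylates BAD, was at 28.0 and 26.1 FPKM in transgenic islets and 20.7 and 22.7 in wild-type islets (0.31 ± 0.15, limma adjusted p = 1.00). With library number as a term its voom adjusted p was 0.0482, and 0.877 with the GC trend also removed. Foxo3, whose protein can induce Bbc3 and Bcl2l11, was at 8.47 and 7.93 FPKM in transgenic islets and 6.67 and 6.77 in wild-type islets (0.25 ± 0.12, limma adjusted p = 1.00). E2f1 had a fold change of 0.23. Most list genes named here were picked for the smallest p of their list. That favours genotypes that do not overlap, so the shares of all genes are no like measure for them. The genotypes did not overlap in Akt1, Foxo3 and E2f1, as in the 12.2% of all genes given above. Among the other list genes named, the same held for Htra2, Gsk3a, Stx1a and Col4a1. In Bid, Bnip3l, Mff, Vdac3 and Ccng1 the genotypes also did not overlap, with transgenic lower, as in 9.03% of all genes. Of these genes Akt1, E2f1, Htra2, Gsk3a, Stx1a and Col4a1 lie in the GC-richest quintile, with its median of 0.16. Bnip3l, Mff, Vdac3 and Ccng1 lie in the poorest, with a median of -0.10, and Foxo3 and Bid in neither. Of 13 regulators of MCL1 protein turnover 10 were tested (median -0.01), led by Gsk3a (0.32), Ier3 (0.41) and Fbxw7 (-0.05). Of 18 other known or proposed miR-29 targets 13 were tested, with a median of 0.10. It was 0.05 with the GC trend subtracted, -0.05 without transgenic 1 and -0.03 without wild type 2. Stx1a had the smallest p among them, at 5.83 and 4.89 FPKM in transgenic islets and 4.38 and 3.53 in wild-type islets. Its log2 fold change was 0.36, and those of the basement membrane collagen genes Col4a2 and Col4a1 were 0.27 and 0.18. Stx1a, Col4a2 and Col4a1 are GC-rich, at 57.9%, 60.6% and 57.7%. With library number as a term and the GC trend removed, their voom adjusted p was 0.609, 0.942 and 0.986.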

How the data were processed

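Whole-islet RNA gave 4 libraries, assigned to groups by their labelled genotype. Per the labels' protocols, a TruSeq RNA kit from Illumina was used. HTSeq 0.6.0 and GRCm38 are named in the submitters' processing notes, and the aligner and the use of strand are not stated there. The authors deposited FPKM for each gene together with its length and position. In 100% of values above 0, FPKM times length was a whole number of steps of a single size in that library, within 0.001, and this number was used as the reads. The totals implied by the scaling are 0.957 to 1.09 times the summed reads, for a reason not given.

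Genes with at least 1 FPKM in at least 2 libraries were fitted with limma 3.58.1 (R 4.3.3; trended empirical Bayes) on log2(FPKM + 1) by genotype alone. Tests were 2-sided, adjusted after Benjamini and Hochberg over all tested genes, with a threshold of 0.05. The code was tested on simulated data. There, with a difference between numbers taken from these libraries, limma by genotype alone called no changed gene. Fits with library number as a term called most changed genes and some unchanged ones. The planted changes were 2-fold and 4-fold, larger than any ratio of a member here, and no GC trend was simulated. Recovery of changes as small as those of the members was therefore not tested. Fold changes are on that scale unless called ratios. Ratios have exact Clopper-Pearson bounds (SciPy 1.17.1). Alternatives varied the pseudocount, filter, scaling, GC content (lowess, span 0.3), library number and libraries used, or ran voom on the recovered reads. GC content and 3' UTRs of at least 50 bases are from GENCODE M21, by gene ID. All members are named, as are the 3 genes of each list with the smallest p and the 3 nearest profiles of Mcl1 and Bbc3, of which 1 is not reported here; Bcl2l2 was added after its values were seen. Members and lists were chosen with earlier results of these data known.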

Additional observations from a re-analysis of the deposited data

How the results depend on the processing

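What a library number stands for is not labelled. Deviations from the genotype means correlated at 0.775 between libraries of the same number, which with 2 pairs is a hint only. With the replicate block, limma on log2(FPKM + 1) called 0 genes (1360 with an unadjusted p under 0.05). Voom without the block called 0 as well (32 with an unadjusted p under 0.05). Voom with the replicate block called 238 genes, 204 higher and 34 lower, and 1 member, Bbc3 (0.46 ± 0.11, voom adjusted p = 0.0193). Voom with the replicate block and the GC curve removed called 111 genes, 81 higher and 30 lower, and 0 members. The fold change of Bbc3 was then 0.17 (voom adjusted p = 0.792) and that of Bmf -0.50 (0.259). Over all alternatives the adjusted p of Bbc3 ran between 0.0193 and 1.00.

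Of 85 fold changes of members under settings that kept all libraries, 80 held their direction and side of the threshold and 1, that of Bbc3 above, passed it. With the GC curve removed Bax reversed to -0.034 in limma and -0.063 in voom with the block, and Bcl2l1 to -0.082 and -0.10. Leaving out 1 library at a time gave -0.080 to 0.30 for Mcl1, -0.069 to 0.13 for Bcl2l1, -0.029 to 0.39 for Bax, 0.04 to 0.32 for Bak1, -0.11 to 0.39 for Bad, 0.17 to 0.66 for Bbc3, -0.021 to 0.17 for Bcl2l11 and -0.39 to -0.03 for Bmf. The numbers are then unequally represented. The BH3-only sum was 4.05 FPKM higher in transgenic than in wild-type islets, 3.81 under median ratio scaling and 1.21 with the GC curve removed. The effector sum was 3.70 higher, and -0.057 with the GC curve removed. The survival sum was 3.07 higher, between -0.978 and 7.12 when 1 library was left out. Of 88 medians of the 8 lists 8 moved by more than their spread, all those of p53 and its targets (0.0048 to 0.12). Of 32 with 1 library left out 5 moved. Those of p53 and its targets went to -0.038 and -0.030, the death receptors to -0.028 and the other BCL2 relatives to -0.13 and -0.14. This spread, the pooled standard deviation of a list's median within genotypes, was 0.02 for p53 and its targets and 0.46 for MCL1 turnover. A median not counted as moved could therefore still change sign. Without wild type 2 that of the regulators of BH3-only members went from 0.07 to -0.12. Without transgenic 1 that of the other miR-29 targets went from 0.10 to -0.05. Values of genes below about 1 FPKM, Bcl2 and Hrk among them, are limited by depth.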
